A study of Rattus norvegicus with 12 samples.

Results

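Long noncoding RNA (lncRNA) was described in 3 libraries of normal fetal rat lumbosacral spinal cord, chosen as the normal lncRNA samples by their labels, out of 12 samples in the study. All 22591 transcripts of the deposited lncRNA table were kept, and 22260 of them had at least 1 count in these libraries. The fetuses were Wistar rats at embryonic day 19 with a normal phenotype, and bulk RNA was taken from the lumbosacral cord. The study also holds 3 lncRNA libraries of fetuses with ethylenethiourea (ETU)-induced anorectal malformations and 3 miRNA libraries of each phenotype, which were not used here. No label ties the 3 normal samples to separate animals or litters, and the spread between them may be partly technical. Their numbers, 1 to 3, are names taken from column headings.

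LncRNAs are transcripts longer than most small RNAs that are not translated into known proteins. Some are nuclear RNAs that act on chromatin, splicing or other RNAs, some are hosts from which small nucleolar RNAs are cut, and many overlap protein-coding genes. Several are made mainly in neurons and change as the nervous system matures. In bulk tissue, fewer cells that make an RNA and less of that RNA per cell cannot be told apart.

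The 3 libraries held 3428655, 3865088 and 3800173 counts in the table, and 20976, 20973 and 21005 transcripts had at least 1 count. Of all transcripts, 19553 (86.6%) were detected in all 3 libraries, 1588 in 2, 1119 in 1, and 331 in none. A count of 0 allowed a level of up to 0.875, 0.776 and 0.789 CPM, the count scaled to a library total of 1000000, in libraries 1, 2 and 3, taking 3 counts as the floor. A deeper requirement left fewer transcripts: 11479 reached 10 counts in all 3 libraries. Of the 1123 transcripts with 3 counts in total, 648 (57.7%) had exactly 1 in each library, where an equal random spread would give 22.2%, so single counts were more even than random sampling gives. The libraries were not copies of each other: over the 13381 transcripts with a mean of at least 10 counts, the mean chi-square per transcript between pairs of libraries was 23.9, 25.3 and 28.1, where sampling alone would give about 1, and the median was 1.34, 2.03 and 2.55, where it would give 0.455. The mean was thus carried by a minority of transcripts.

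Counts were concentrated in few transcripts. The most abundant transcript took 2.03% ± 0.499 of a library (SD, n = 3), the 5 most abundant 7.43% ± 0.0743, the 10 most abundant 10.7% ± 0.589 and the 100 most abundant 25.9% ± 0.713. The 547 most abundant transcripts held 50% of all counts, and 4426 held 90%. In the middle of the range, 3950 transcripts with a mean of 100 to 1000 counts held 34.9% ± 0.367, and the 8693 with a mean of 10 to 100 counts held 8.41% ± 0.214. The 942 transcripts detected at a mean below 1 count held 0.0137% ± 0.000660. Rank order was shared between libraries: 8 of each library's 10 most abundant transcripts, 68 of the 100 and 789 of the 1000 were in the corresponding set of all 3 libraries. The curves of CPM by rank lay close together over most of the range.

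**Figure D1:**
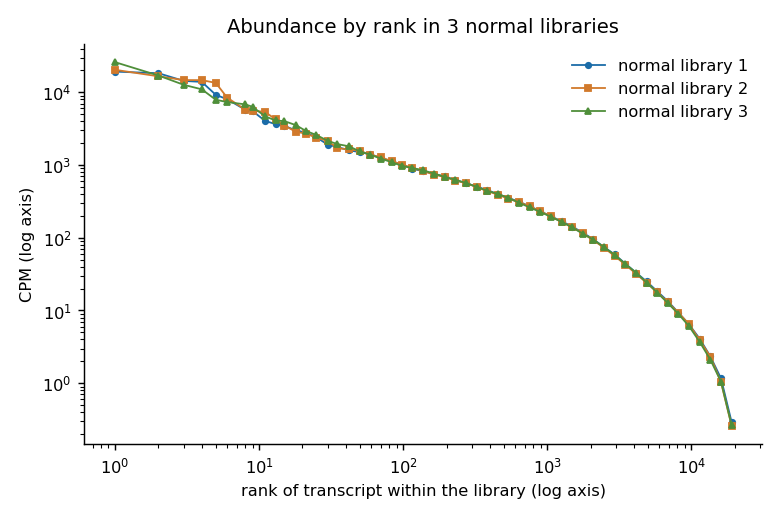
CPM against rank within each of the 3 normal libraries, both on log axes, with 1 line per library. The 3 lines nearly coincide, with the 100 highest transcripts together at 25.9% of counts.

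The transcript with the most counts was MSTRG.113.4, an assembled transcript of 765 bases at chr1:11906772-11907668 with no gene name in the table. It had 62800, 64195 and 98727 counts in libraries 1 to 3, a mean of 20302 ± 4991 CPM. Library 3 was high, and libraries 1 and 2 were close to each other. The nearest transcripts in the table with a matched gene symbol, Adgrg6 and Mcc, lay 3310427 and 179048 bases away. These matches are by name, and it was not established that the genes themselves lie there. A second assembled pair, MSTRG.114.2 and MSTRG.114.1, spanned the same chr1:11912071-11914300 and averaged 3509 ± 515 and 3353 ± 596 CPM, library 3 again being highest for each.

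Next came 2 unspliced NONCODE transcripts of chromosome 1 that carry the AceView locus names stawflu and gokla. Stawflu (NONRATT003468.2, chr1:221156368-221158798) had 66039, 78822 and 64669 counts. Gokla (NONRATT003466.2, chr1:221152844-221153728) had 49244, 56951 and 48182 counts. For both, library 2 was highest in CPM and library 3 lowest, with a narrow spread: 18891 ± 1718 and 13925 ± 1095 CPM. The short gawkla (NONRATT003467.2) lay between them and averaged 1292 ± 75.02 CPM. No gene symbol was given to these transcripts, because the table does not pair them with one.

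**Figure D2:**
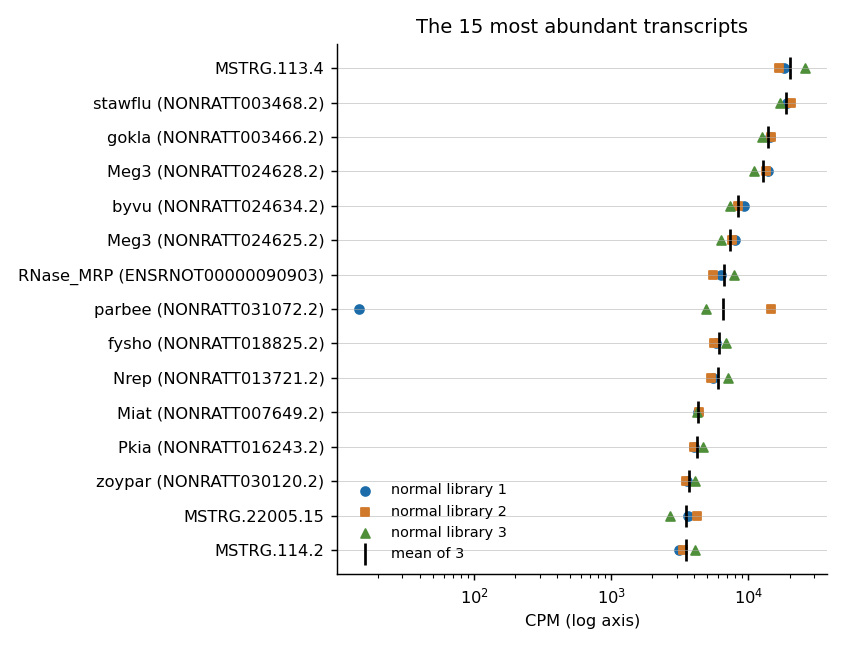
CPM of the 15 most abundant transcripts in each of the 3 normal libraries, on a log axis, with the mean of 3 as a vertical mark. All but parbee (NONRATT031072.2) have their 3 points close together, and parbee spans from 14.6 CPM in library 1 to 14715 CPM in library 2.

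Meg3, a maternally expressed imprinted lncRNA known from mouse and human to restrain growth and to be abundant in brain, was the most abundant locus with a gene symbol. Its RefSeq promoter is shown because this locus held more counts than any other cluster of overlapping transcripts. The promoters of Snhg11, Vof16 and Gas5 follow as those of the next annotated lncRNA genes by summed level that matched the RefSeq promoter table. Miat was not matched. Each runs from 250 bases before to 50 bases after the gene's start in build GRCr8, 5′ to 3′, and all 4 lie on the plus strand. Capitals mark TATAAA and CCAAT on either strand, and the pair of TATAAA matches in Meg3 overlap each other.
Meg3 chr6:134273806-134274105: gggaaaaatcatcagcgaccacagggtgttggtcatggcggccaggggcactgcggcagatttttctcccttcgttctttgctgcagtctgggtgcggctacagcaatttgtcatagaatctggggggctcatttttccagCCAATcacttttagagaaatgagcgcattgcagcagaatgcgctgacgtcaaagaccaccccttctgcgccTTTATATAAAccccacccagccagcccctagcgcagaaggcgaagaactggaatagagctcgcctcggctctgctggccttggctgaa
Snhg11 chr3:167451022-167451321: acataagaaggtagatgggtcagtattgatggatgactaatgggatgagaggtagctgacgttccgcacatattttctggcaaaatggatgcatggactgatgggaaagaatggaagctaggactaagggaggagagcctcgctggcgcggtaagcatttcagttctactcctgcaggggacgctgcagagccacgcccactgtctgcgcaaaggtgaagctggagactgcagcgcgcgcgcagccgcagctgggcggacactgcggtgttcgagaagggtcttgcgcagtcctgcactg
Vof16 chr8:50849882-50850181: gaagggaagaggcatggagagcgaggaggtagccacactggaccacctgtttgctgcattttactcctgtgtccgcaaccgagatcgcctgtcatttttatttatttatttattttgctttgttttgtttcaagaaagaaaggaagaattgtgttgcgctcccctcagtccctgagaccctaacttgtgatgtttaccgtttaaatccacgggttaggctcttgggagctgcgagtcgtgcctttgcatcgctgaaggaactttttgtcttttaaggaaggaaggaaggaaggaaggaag
Gas5 chr13:75836713-75837012: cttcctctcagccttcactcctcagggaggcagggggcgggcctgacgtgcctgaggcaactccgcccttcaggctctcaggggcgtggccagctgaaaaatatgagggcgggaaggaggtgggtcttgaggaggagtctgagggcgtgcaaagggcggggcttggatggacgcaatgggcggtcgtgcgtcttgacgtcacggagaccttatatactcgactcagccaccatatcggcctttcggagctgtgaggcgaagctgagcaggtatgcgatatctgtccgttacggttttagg
Among 33469 rat promoters of this length, 14.2% held TATAAA and 37.5% held CCAAT on either strand. The Meg3 promoter held both, with the forward TATAAA beginning 34 bases before the start, and the other 3 held neither. The 4 held 13, 17, 10 and 20 CG dinucleotides in the order shown, against a median of 7 over all these promoters. In the same order, 64.7%, 71.0%, 58.5% and 75.8% of all these promoters held fewer, so none of the 4 was extreme. A match is a description of the letters and not a binding site.

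The Meg3 cluster spanned chr6:133658933-133691132 in the coordinates of the table, whose build is not given in the sources used here. It joined 19 overlapping transcripts, 13 of them carrying the Meg3 name, and held 134573, 144297 and 120936 counts, or 3.61% of all counts. Library 3 was lowest in CPM, and the CV of the sum (SD over mean of CPM across the 3 libraries) was 0.107. Within it the longest Meg3 transcript (NONRATT024628.2, 6449 bases) had 47674, 52125 and 41779 counts. A second Meg3 transcript (NONRATT024625.2) had 27500, 29461 and 24036 counts. The unspliced byvu (NONRATT024634.2), which has no gene symbol, had 31716, 32669 and 27877. All 3 were lowest in library 3.

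Per length, byvu was the highest member of the Meg3 cluster. It reached 3253 ± 375 CPM per kb and bavu (NONRATT024633.2, 625 bases) 2726 ± 487. The 2 main Meg3 transcripts stood at 1984 ± 244 and 1951 ± 236 CPM per kb. Sworvy (NONRATT024632.2) had 1804 ± 213 CPM per kb. These 5 lie one after another along the locus, and all 5 were lowest in library 3 in CPM. NONRATT033351.1, spliced over nearly the whole cluster, had 1273 ± 98.8 CPM per kb and was highest in library 3. The other 13 had at most 392 CPM per kb, and NONRATT024618.2 switched: it had 356 counts in library 1 and 0 in libraries 2 and 3. Of 15 listed imprinted loci, Igf2 (7, 5 and 13 counts) and Mest (0, 2 and 1) were the others with a transcript under their name, and the 3 loci summed to 21346 ± 2505 CPM.

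Miat, a nuclear lncRNA studied in neurons and retina and known for binding splicing factors, was the 1 locus found by name of 10 listed nuclear and X-linked noncoding RNAs, with 1 transcript (NONRATT007649.2, 8474 bases, chr12:50447251-50461859). It had 14691, 16944 and 16038 counts, or 4296 ± 82.4 CPM. This was among the steadiest of the abundant transcripts, with a CV of 0.0192 where Meg3 had 0.117 over its 13 transcripts. Per length it stood at 507 ± 9.72 CPM per kb, rank 91 of the table, although it ranked 11 by CPM.

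Listed hosts of small RNAs and other structured RNAs were found at 4 of 15 loci and summed to 1562 ± 99.5 CPM. Snhg11, a neuron-rich small nucleolar RNA host, was highest. Its 4 transcripts summed to 3316, 3219 and 2888 counts, 853 ± 105 CPM. Gas5, a growth-arrest RNA with box C/D small nucleolar RNAs in its introns, had 10 transcripts that summed to 645, 602 and 538 counts, 162 ± 23.9 CPM. Both were lowest in library 3. Vof16, a further annotated lncRNA gene, had 2252, 2797 and 2100 counts. Together the 70 transcripts whose symbol is annotated as lncRNA in RefSeq held 2.79% ± 0.274 of counts, so most counts lay outside transcripts matched to such genes.

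Per base of length, short structured RNAs joined the top. RNase_MRP (ENSRNOT00000090903, 272 bases), the RNA of the enzyme that processes ribosomal and mitochondrial RNA, had 21750, 21460 and 30072 counts and 24276 ± 4418 CPM per kb. 7SK (ENSRNOT00000079055, 331 bases), which holds the elongation factor P-TEFb inactive, had 9594, 9200 and 13682 counts and 8841 ± 1873 CPM per kb. Rn7sl1 (ENSRNOT00000088597, 300 bases), the RNA of the signal recognition particle, had 3405, 3636 and 5271 counts and 3690 ± 813 CPM per kb. All 3 were clearly highest in library 3, as was NONRATT010821.2 (257 bases), with 1563, 1660 and 2487 counts. That transcript was matched to Rpph1, the RNA of ribonuclease P, but its AceView locus name is Rmrp and its RefSeq biotype RNase MRP RNA. Terc, the telomerase RNA, was less clearly highest in library 3, with 109, 126 and 135 counts.

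The highest value per length belonged to MSTRG.113.4, with 26538 ± 6524 CPM per kb. Gokla followed RNase_MRP with 15735 ± 1238 CPM per kb, and stawflu had 7771 ± 707. The remaining places among the 10 highest went to MSTRG.114.2, MSTRG.114.1, blorbey (NONRATT030816.2, 557 bases on X, 5576 ± 693) and gawkla (5337 ± 310). Only 54 transcripts were shared by the 100 highest by CPM and the 100 highest by CPM per kb.

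The table's 3 identifier classes differed in length and in how much of the libraries they held. NONRATT identifiers, from the NONCODE catalogue, made up 20418 transcripts (90.4%) and 76.0% ± 3.68 of counts. MSTRG identifiers, given to transcripts assembled from reads, made up 1224 transcripts (5.42%) and 21.7% ± 3.93 of counts. ENSRNOT identifiers, from Ensembl, made up 949 transcripts (4.20%) and 2.33% ± 0.253 of counts. Assembled transcripts were thus few and abundant, and their share was 23.5%, 24.4% and 17.2% in libraries 1 to 3, lowest in library 3. Assembly itself needs reads. The counts of assembled transcripts, and how many pass a count minimum, are therefore not on equal terms with those of catalogue transcripts.

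Median length was 654 bases for NONRATT, 781 for ENSRNOT and 3676 for MSTRG transcripts. A mean of at least 10 counts was reached by 58.2% of NONRATT, 32.6% of ENSRNOT and 97.3% of MSTRG transcripts. Among those, the median level per length was 17.3 ± 0.385 CPM per kb for NONRATT, 10.1 ± 1.09 for ENSRNOT and 20.8 ± 4.48 for MSTRG. The NONRATT and MSTRG medians differed by less than the spread of the MSTRG value, and in library 3 MSTRG was the lower of the pair, 15.7 against 16.9. The order also depended on the count minimum: with a mean of at least 100 counts the medians were 69.8, 44.5 and 22.5 CPM per kb, since a count minimum removes short transcripts of low level first. Of the 100 highest transcripts by CPM, 72 were NONRATT, 25 MSTRG and 3 ENSRNOT, and of the 100 highest per kb, 89, 8 and 3.

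**Figure D3:**
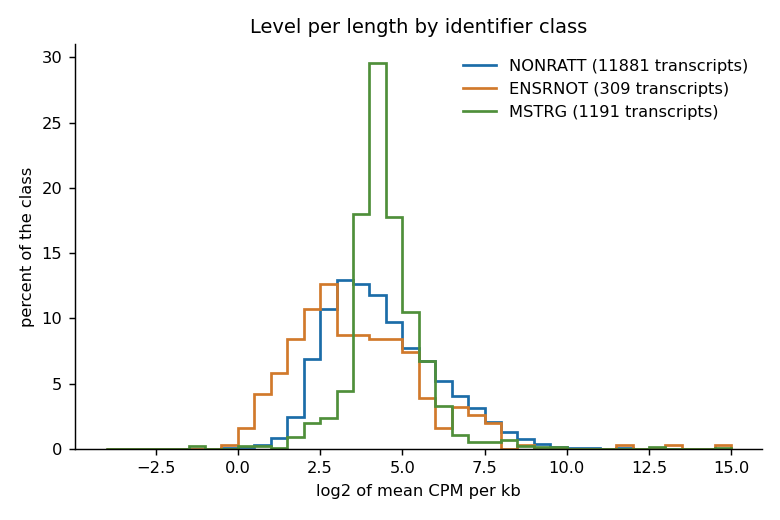
Distribution of log2 mean CPM per kb in each identifier class, as percent of the class, for transcripts with a mean of at least 10 counts over the 3 normal libraries. The middle 50% of MSTRG transcripts lies between 15.3 and 31.1 CPM per kb, and that of NONRATT, wider, between 8.82 and 43.0.

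The median level per length differed between ranges of transcript length. Among transcripts with a mean of at least 10 counts the median was 16.97 ± 0.185 CPM per kb from 200 to under 500 bases, 14.2 ± 0.604 up to 1000, 23.2 ± 0.596 up to 2000 and 33.6 ± 1.57 from 2000 to under 5000 bases. It was 20.6 ± 4.88 from 5000 to under 10000 bases and 22.7 ± 5.74 at 10000 bases and over. The minimum of 10 counts was reached by 36.8% of transcripts from 200 to under 500 bases and 96.4% at 10000 bases and over. The medians of short and long transcripts are therefore not on equal terms. The 1458 transcripts from 2000 to under 5000 bases alone held 34.2% ± 1.46 of counts. Of the 519 transcripts of at least 5000 bases, 482 (92.9%) were MSTRG, and 282 of these had a length of at least 95% of their genomic span, so few bases of the span were left out as introns.

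Names in the table describe loci more than functions. A current rat gene symbol was matched to 8251 transcripts (36.5%) at 5401 symbols, which held 22.8% ± 0.867 of counts. An AceView locus name alone was carried by 10655 transcripts, with 47.7% ± 2.51 of counts, and an identifier alone by 3685, with 29.6% ± 3.25. Of the transcripts with a symbol, 8152 carry that of a protein-coding gene and held 19.8% ± 1.05 of counts. Such a symbol gives the locus only: the table gives no strand, and reads of a messenger RNA and of a transcript that overlaps it cannot be told apart. Transcripts that AceView marks as unspliced (9369) held 50.5% ± 2.57 of counts, and those with a spliced AceView name (9474) held 19.1% ± 0.682. Their median levels per length were 21.02 ± 0.699 and 14.95 ± 0.326 CPM per kb.

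Among protein-coding loci, Nrep, a small protein expressed in regenerating and developing neurons, had the most counts, 18994, 20818 and 27060 over 3 transcripts. Pkia, an inhibitor of protein kinase A, had 14008, 15534 and 17996. Both were highest in library 3 in CPM, 7121 and 4736 CPM, and the other libraries were close to each other. Hnrnpa2b1, an RNA-binding protein of the spliceosome and of RNA transport granules, had 8138, 9209 and 8609 counts over 9 transcripts, 2341 ± 65.2 CPM. Map6, which stabilises neuronal microtubules, had 6547, 6547 and 8883 counts, and Gnao1, a G protein subunit abundant in growth cones, 5051, 5833 and 7019. The loci of Bclaf1, Sfpq, Srsf7 and Tardbp, which encode nuclear RNA-binding or splicing proteins, averaged 1198 ± 75.1, 1061 ± 126, 985 ± 50.1 and 951 ± 42.9 CPM. These symbols were picked for the height of their sums.

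The Hox genes set position along the body axis, and transcripts at 8 of 42 listed Hox loci were in the table. All 8 were detected in every library, as were 91.5% of all transcripts with a protein-coding symbol. The 8 Hox transcripts summed to 411 ± 27.6 CPM. Hoxb8 (NONRATT004798.2) had 738, 922 and 1116 counts, Hoxd9 (NONRATT018267.2) 391, 306 and 383, and Hoxb3 (NONRATT004800.2) 186, 245 and 172. These 3 held nearly all of the sum. Hoxc4 had 28, 31 and 1, so it was almost at 0 in library 3. The more caudal Hoxc10 and Hoxc9, known for lumbar and thoracic identity, had 15, 9 and 6 counts and 1, 2 and 1. Hoxb5 and Hoxd3 had 1 count in each library.

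Spinal patterning genes encode transcription factors that divide progenitors and neurons into dorsal and ventral classes. Of 29 listed loci 13 had transcripts, 17 in all, with a summed level of 215 ± 20.1 CPM. Foxp2 (NONRATT020253.2) gave most of it with 455, 471 and 533 counts. Dbx2, a marker of progenitors at an intermediate dorsoventral position, had 61, 65 and 77 counts, and Lhx3, of motor neurons and V2a interneurons, had 27, 23 and 26. These 3 transcripts were steady. The other Foxp2 transcript was not (NONRATT020252.2, 11, 54 and 49 counts), and neither were those of Foxp1, used by limb-innervating motor neurons: NONRATT021671.2 had 58, 3 and 44 counts and NONRATT021672.2 had 0, 28 and 26. Transcripts at Tlx3, Irx3, Nkx2-2, Pax6 and Gata3 had at most 42 counts in any library.

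As with 91.5% of all transcripts with a protein-coding symbol, transcripts at marker loci of neurons were detected in every library. Those at 4 of 7 neuron loci summed to 225 ± 26.6 CPM, led by Elavl3 (NONRATT028347.2; 438, 408 and 629 counts), a neuronal RNA-binding protein, and Map2 (NONRATT030122.2; 140, 181 and 166), a dendritic microtubule protein. No transcript carried the name of a listed motor neuron marker (Chat, Isl1, Mnx1 or Slc18a3). Transcripts at 2 of 4 sensory ganglion loci summed to 451 ± 65.8 CPM, nearly all from Pou4f1 (NONRATT011162.2; 1301, 1749 and 1935 counts), a transcription factor that dorsal spinal interneurons also use, while Scn10a, a nociceptor sodium channel, had 0, 12 and 0. How far dorsal root ganglia entered the dissection was not tested.

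Glial and non-neural loci had smaller sums, in CPM with no correction for length. Of the oligodendrocyte loci, Mbp, a myelin protein, and Olig2, a lineage transcription factor, had transcripts with at most 5 counts in any library. Gfap and Slc1a3 gave 19.3 ± 8.68 CPM for astrocytes, with library 1 highest at 29.2 CPM and library 3 lowest at 12.9. Vim gave 17.5 ± 1.03 CPM for progenitors. Pecam1 gave 27.8 ± 4.43 CPM for endothelium. Col1a1 gave 16.9 ± 8.50 CPM for mesenchyme and Col2a1 with Acan 8.56 ± 8.24 CPM for cartilage, with library 3 highest in both at 25.5 and 17.4 CPM and library 2 lowest at 8.54 and 1.03. Hbb gave 5.88 ± 3.83 CPM, Aif1 with Csf1r 2.12 ± 1.09 CPM for microglia, and Myog was detected by 1 count in library 3 alone. These are transcripts at the marker genes' loci and not the marker messenger RNAs, so they rank no cell types.

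Among synaptic genes, 8 of 23 listed loci summed to 1300 ± 82.9 CPM. Gria2, a subunit of AMPA glutamate receptors, had 1547, 2099 and 1565 counts at NONRATT016492.2 and 1033, 1303 and 1005 at NONRATT016493.2, both highest in library 2. Syn1, a synaptic vesicle protein, had 899, 1079 and 1176 counts, and Nrxn3, a presynaptic adhesion protein, 444, 510 and 566. Gad2 and Slc6a5, of inhibitory neurons, had 13, 7 and 4 counts and 1, 1 and 1. Loci of axon growth and adhesion, 8 of 24, summed to only 31.6 ± 3.68 CPM, with Slit3 (28, 25 and 32 counts) and Cdh2 (24, 33 and 25) highest. No transcript carried the name of a listed microRNA host or of the listed neural lncRNAs, which says nothing of transcripts named otherwise.

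The spread between libraries fell with abundance and stayed above counting error at means of 10 counts and more. At a mean of 1 to 10 counts the median CV was 0.445, with quartiles of 0.243 and 0.818. Counting error gives a median CV of 0.456 over 3 libraries in a normal approximation. These close medians do not show that the spread there was counting error alone, since single counts were more even than random sampling gives. For the 13381 transcripts with a mean of at least 10 counts the median CV was 0.213. It was 0.304 at a mean of 10 to 30 counts, where counting error alone gives 0.202, 0.159 at 100 to 300 counts, where it gives 0.0658, and 0.135 at 1000 to 10000 counts, where it gives 0.0205. Library 3 lay furthest from the others: the median CV was 0.137 without it, 0.173 without library 2 and 0.199 without library 1, where a CV over 2 libraries also tends to be lower than one over 3. Libraries 1 and 2 agreed within 1.5-fold for 76.3% of these transcripts, libraries 1 and 3 for 69.1% and libraries 2 and 3 for 65.5%. Across transcripts, which are not independent replicates, the Pearson correlation of log2 CPM was 0.869, 0.872 and 0.870 for the same pairs. The common biological coefficient of variation estimated by edgeR was 0.425, and it was 0.328 when overlapping transcripts were summed.

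**Figure D4:**
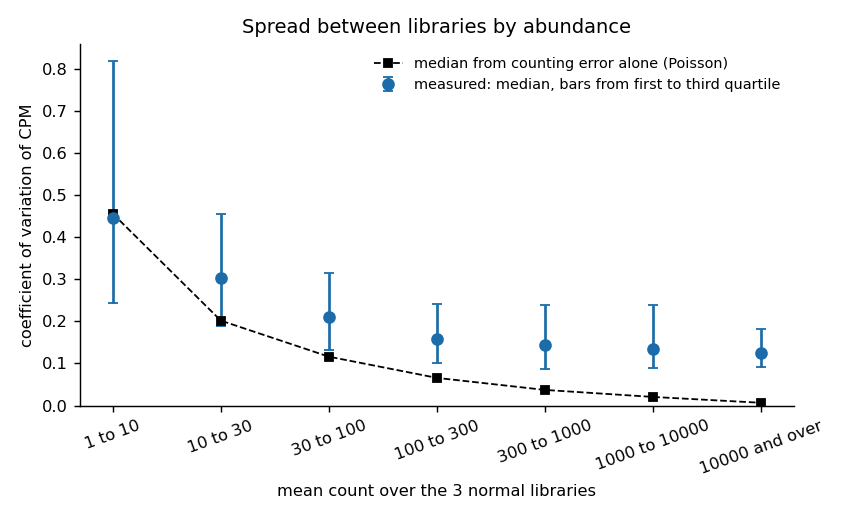
Coefficient of variation of CPM over the 3 normal libraries by mean count, as the median with bars from the lower to the upper quartile, beside the median that counting error alone gives. The median falls from 0.445 at 1 to 10 counts to 0.124 at 10000 counts and over, and from 10 counts upward it lies above counting error.

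The steadiest transcripts had nearly equal CPM in all 3 libraries. Snervoy (NONRATT023352.2) had 160, 180 and 177 counts, which is 46.6 ± 0.0531 CPM, and the loci of Crtc2, a coactivator of CREB (109, 124 and 121 counts), Phip (266, 303 and 297) and Inha, an inhibin subunit (184, 205 and 204), were alike. Among 4688 transcripts with a mean of at least 100 counts, such closeness marks the lower end of a wide distribution of CV, from 0.00114 to 1.73.

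Library 3 differed from the others by identifier class. Among transcripts with a mean of at least 100 counts, 56 of 907 MSTRG transcripts (6.17%) were highest in library 3 in CPM, and 611 (67.4%) were highest in library 2. Of 3693 NONRATT transcripts, 2146 (58.1%) were highest in library 3. The median log2 ratio to the mean of the 3 libraries was 0.12, 0.24 and -0.47 for MSTRG and -0.02, -0.09 and 0.10 for NONRATT in libraries 1 to 3. Because CPM are shares of the table, a lower share of one class raises the others. With TMM scaling 59.95% of NONRATT transcripts were highest in library 3, and with DESeq2 size factors 65.3%, with MSTRG ratios in library 3 of -0.46 and -0.43. Each of these scalings is fitted within the table, so a rise of NONRATT and a fall of MSTRG transcripts in library 3 cannot be told apart.

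MSTRG values were low in library 3 on both sides of 5000 bases. MSTRG transcripts under 5000 bases had a median log2 ratio of -0.40 in library 3 and those of 5000 bases and over of -0.51. The only 15 NONRATT transcripts of 5000 bases and over had 0.18, beside 461 MSTRG transcripts of that length. A part of length in the difference between the classes was not tested. Whether RNA quality or library preparation differed between the 3 samples was not tested.

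**Figure D5:**
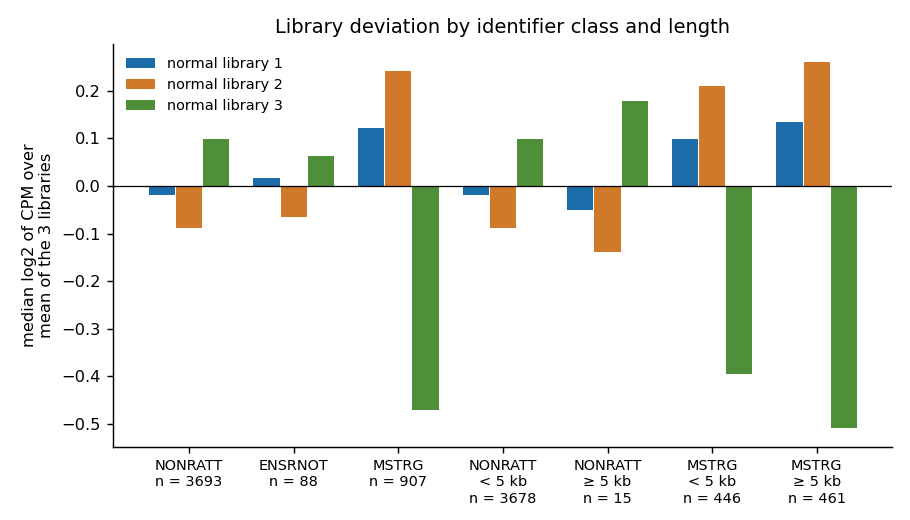
Median log2 ratio of CPM to the mean of the 3 normal libraries, with 1 bar per library, for transcripts with a mean of at least 100 counts by identifier class and by length below or above 5 kb (n under each). MSTRG transcripts of both lengths are low in library 3, and NONRATT transcripts are not.

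Among the 21 transcripts with a mean of at least 10000 counts, the widest spread was on chromosome X, with a CV of 1.14. Parbee (NONRATT031072.2, chrX:74324613-74331978), whose 7366 bases cover its whole span, had 50, 56874 and 18732 counts. The adjoining NONRATT031073.2 (chrX:74332849-74341256) had 18, 22326 and 7415 counts, and ENSRNOT00000076920 within it had 1, 879 and 564. Library 1 was thus almost empty at all 3, and library 2 was the highest. The 3 took 0.00201%, 2.07% and 0.703% of libraries 1, 2 and 3, and parbee was 1009-fold higher in library 2 than in library 1 and 2.99-fold higher than in library 3.

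Transcripts next to them did not follow. Ruby (NONRATT030613.2), which overlaps NONRATT031073.2, had 68, 104 and 118 counts, pabee (NONRATT030612.2) 65, 83 and 86, and rybee (NONRATT030614.2) 19, 23 and 24. The rest of chromosome X took 2.41%, 2.44% and 2.55% of the libraries. The table does not pair these transcripts with a gene symbol, so none was given. The labels do not give the sex of the fetuses.

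Of the 738 transcripts with a mean of at least 1000 counts, 31 differed over 10-fold between libraries, parbee and NONRATT031073.2 among them. Those named here were chosen after their values were seen. At the locus of Calm3, a calmodulin gene, NONRATT002333.2 had 13715, 297 and 433 counts. At Hnrnpa3, an RNA-binding protein gene, NONRATT018275.2 had 358, 9297 and 11025. Library 1 stood apart at both loci, as the high one at Calm3 and the low one at Hnrnpa3. Pluner (NONRATT004982.2) was near 0 in library 1 and highest in library 2, with 4, 5265 and 730 counts, and NONRATT017985.2 was high in library 3 alone, with 18, 18 and 4950.

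A minority of these switches were balanced by overlapping transcripts. Of the 31 transcripts, 10 overlapped no other, and of the 18 clusters that held the rest, 6 (33.3%) had sums within 2-fold over the 3 libraries and 6 had sums over 10-fold apart. MSTRG.9225.2 had 0, 3253 and 2109 counts while MSTRG.9225.1, which covers nearly the same span, had 3334, 492 and 147. Summed with MSTRG.9224.1, the other transcript of the cluster, they gave 1053, 1065 and 646 CPM. In all, 116 transcripts had 0 counts in 1 or 2 libraries and at least 100 in another. MSTRG transcripts were 80 of these, 8.18% of the MSTRG transcripts with 100 counts in any library, against 0.833% of NONRATT. Of the 116, 105 (90.5%) lay in clusters of overlapping transcripts, against 33.0% of all transcripts with 100 counts in any library. Of the 76 such clusters 49 (64.5%) had sums within 2-fold over the 3 libraries, against 943 (89.7%) of all 1051 such clusters with a transcript that reached 100 counts in any library. At a mean of at least 100 counts, 26 transcripts had counts in 1 library alone, the highest CV that 3 libraries can give. They were 23 MSTRG and 3 NONRATT transcripts, tied in CV, such as MSTRG.10119.2 with 2044, 0 and 0 and MSTRG.3612.2 with 0, 1767 and 0.

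Summing overlapping transcripts narrowed the spread in general. The 22591 transcripts formed 18074 clusters, 2679 of them with 2 or more transcripts. The median CV was 0.180 for the sums of such clusters, 0.234 for their members and 0.201 for transcripts alone in their cluster. More than 2-fold between libraries were 16.9% of these sums, 29.95% of their members and 20.9% of lone transcripts. Summed levels at the locus were thus steadier than levels of its separate transcripts, for which the counting tool's way of dividing shared reads is not given in the sources used here. Sums also hold more counts than their members, and the spread fell with counts. A comparison at equal counts was not made.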

How the data were processed

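Total RNA of the lumbosacral cord was made into lncRNA libraries by Illumina protocols, per the labels' protocols. Each row of the deposited lncRNA table is a transcript with its length, coordinates and unnormalized counts, per the file headers. Among the tools in the submitters' processing notes are Cufflinks 2.1.1, Cuffdiff, TopHat2 2.0.9 and CASAVA 1.8, and the build named there is of mouse, whereas the table is of rat. None of the sources used here gives the strand, the counting tool, the coordinate build or the handling of shared reads.

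Columns were matched to the normal group by their headings, which differ in form from the sample labels, so the 3 libraries carry names only. The other 9 columns of sample values in the table, malformation samples and FPKM, were not used. CPM is the count over the column total of the table, and CPM per kb divides it by the deposited length. Values are means ± SD over 3 libraries with a minimum mean of 10 counts where stated. The biological coefficient of variation came from edgeR 4.0.16 in R 4.3.3 with TMM scaling and was tested on simulated data, with size factors of DESeq2 1.42.0 as an alternative. No hypothesis test was made. Floors cover counting error only.

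Symbols were matched to RefSeq GRCr8 through AceView names (8188 transcripts), RefSeq accessions (37) and Ensembl names (26). Transcripts with overlapping coordinates on either strand formed clusters. Named transcripts were the 15 highest by CPM, the 10 highest by CPM per kb of at least 200 bases, the 3 highest of each class, the 10 largest (tied, in identifier order) and 10 smallest CV and the 3 longest and 3 shortest at a mean of at least 100 counts, up to 4 members of each of 21 locus lists and the 5 highest clusters. The members and lists were chosen with earlier results of these data known. Some loci are not reported here.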

Additional observations from a re-analysis of the deposited data

How the results depend on the processing

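With each library left out in turn, results ranged as follows: transcripts detected in all libraries 20063 to 20109 (19553 with all 3), the share of the 5 most abundant 7.44% to 7.58%, the shares of NONRATT, ENSRNOT and MSTRG 73.9% to 77.2%, 2.19% to 2.44% and 20.3% to 23.9%, their median CPM per kb 17.1 to 17.7, 10.2 to 10.9 and 19.7 to 23.6, the share at gene symbols 22.4% to 23.2%, the median CV 0.137 to 0.199, the biological coefficient of variation 0.399 to 0.425, the median CV of cluster sums 0.118 to 0.167 and of their members 0.156 to 0.214, and the imprinted list 20420 to 22771 CPM. A minimum of 10 counts for detection gave 11479 transcripts. Summing overlapping transcripts raised the share of the 5 most abundant to 9.61%. Median CPM per kb moved with the filter: for NONRATT 6.40 with none, 69.8 at a mean of 100 counts and 29.9 at 1000 bases or more, and for ENSRNOT 1.33, 44.5 and 6.96. The median CV was 0.269 at a mean of 1 count and 0.149 at 100, that of cluster sums 0.140 at 100 and that of members 0.290 and 0.176, and the biological coefficient of variation 0.451 at 100. TMM, DESeq2 size factors and removal of the 5 most abundant transcripts moved the results they were tried on by less than their spread. A further 3 alternatives were added after seeing the data: without the 3 X transcripts, without MSTRG transcripts, and total-count scaling for edgeR. Overlap on the same strand was not run because the table gives no strand, and neither was the alternative on FPKM, since its columns match the group but no sample. No paired analysis was possible because no test was made and the columns carry names only. The sums of the other 17 locus lists with members moved by less than their SD under TMM. With a library left out, the mean of a list cannot move by as much as its SD over the same 3 libraries, so that comparison decides nothing.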

Other observations

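Counts were spread unevenly over chromosomes. Chromosome 6, which holds the Meg3 cluster, had 4.54% of the transcripts and 8.17% ± 0.427 of counts (SD, n = 3). Chromosome 1, with MSTRG.113.4, stawflu and gokla, had 12.6% of the transcripts and 15.4% ± 0.523 of counts. Chromosome 19 had 2.90% of the transcripts and 1.66% ± 0.177 of counts, and chromosome 20 had 2.45% and 1.56% ± 0.0526. Chromosome X varied most between libraries, with 2.41%, 4.52% and 3.26% in libraries 1 to 3, and without the 3 transcripts described above it had 2.41%, 2.44% and 2.55%.

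The longest transcript with a mean of at least 100 counts was varty (NONRATT026286.2), whose 57691 bases cover its whole span on chromosome 7. It had 386, 357 and 479 counts, or only 1.91 ± 0.294 CPM per kb. The next longest, MSTRG.8067.1 (44530 bases) and MSTRG.22911.1 (44182 bases), had 22.4 ± 6.36 and 25.5 ± 7.21 CPM per kb, with library 2 highest and library 3 lowest for each. The shortest were at the loci of Sec61g, a subunit of the protein translocation channel, and Cst3, the protease inhibitor cystatin C. Cst3 (NONRATT019765.2, 210 bases) had 727, 684 and 1084 counts and 1070 ± 263 CPM per kb, highest in library 3.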
